A study of Mus musculus with 48 samples.

Results

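Long intergenic noncoding RNAs (lincRNAs) are transcripts of genes that lie between protein coding genes and carry no recognised reading frame. The 212 described here are the rows of the deposited count table that carry the biotype lincRNA and have a mean count of 10 or more over all libraries. They were taken from 5559 lincRNA rows, of which 3488 had no count in any library, in a table of 54532 genes. They were selected on the mean level over all libraries alone, so the daily rhythm of these genes and the difference between light schedules were not used to choose them. The last genes left out were 6030443J06Rik, Gm15706 and B230208H11Rik, with mean counts of 9.77, 9.88 and 9.96. The first genes kept were 1110013H19Rik, 5830454E08Rik and Gm26584, with 10.0, 10.4 and 10.5. All 212 passed the filter on low counts used for the tests, and 200 had a count in every library.

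The RNA came from livers of wild-type male C57BL/6 mice, 8 to 10 weeks old. Control mice kept an unchanged 12:12 cycle of light and dark. Phase shift mice had their lights brought forward once by 6 h, as after eastward travel, and livers of both arms were collected at 4 h intervals between day 6 and day 7 after the shift. Each arm has 4 libraries at each of zeitgeber times ZT0, ZT4, ZT8, ZT12, ZT16 and ZT20, counted in hours from lights-on, which gives 48 libraries in 12 groups of 4. No allele or drug separates the arms. It is not stated from which lights-on the zeitgeber times of the phase shift mice were counted, and the labelled times are used. Each library stands for a liver taken at a single time, with 24 per arm in the design text, so a daily course runs across animals.

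Total counts were 15370303 to 19639753 per library, and a count of 0 allows a level of up to 0.153 to 0.195 CPM (counts relative to the library's total), from counting error alone. The lincRNAs took 0.116% to 0.254% of the counts of a library, with a median of 0.144%. The median share of mitochondrial transcripts was 7.11%, and 8 libraries lay above 9.54%, between 9.88% and 19.9%. For phase shift these were replicates 1 and 2 of ZT0 and replicates 2 and 3 of ZT4, and for control replicate 1 of ZT4 and of ZT20 and replicate 2 of ZT8 and of ZT12. In them the summed level of 10 Kupffer cell markers had a median of 62.8 CPM, against 340 CPM over all libraries, and 9 markers of sinusoidal endothelium had 72.9 CPM against 321 CPM. The 5 hepatocyte markers summed to 62940 to 116100 CPM in every library, the level of liver tissue. The library of phase shift ZT20 replicate 2 had a summed level of 5 cell cycle markers of 302 CPM, while the other libraries had at most 11.95 CPM. In bulk liver, fewer cells of a type and less RNA per cell cannot be told apart.

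In mammalian liver the clock is a feedback loop in which the activators CLOCK and BMAL1 bind E-boxes and drive their own repressors, the PER and CRY proteins. REV-ERB proteins and ROR receptors act through a second element, the RORE, and PAR bZIP factors such as DBP act through the D-box. Long noncoding genes can carry the same elements, and many of their transcripts stay in the nucleus and are short-lived, so that their level follows transcription closely. Most lincRNAs measured here have no described function. In all, 192 of the 212 carry a numbered, Rik or clone name in place of a functional one. All 17 of the listed clock genes, among them Arntl (Bmal1), Per2, Cry1, Nr1d1 and Dbp, were called rhythmic in both arms.

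Start regions of lincRNA genes that bear on the rhythms described further on are given here as the sequence from 250 bases before to 50 bases after the start, 5′ to 3′ on the gene's strand, from RefSeq on build GRCm38.p6. Capitals mark the E-box CACGTG and the RORE NTAGGTCA. 1700001L05Rik and D630024D03Rik peaked in the light phase and hold 2 E-boxes each. Gm15408 and 5930430L01Rik are divergent neighbours that both rose in the light phase. 1810008I18Rik is an abundant lincRNA with a peak around ZT0 and has a RORE and an E-box. Gm36041, the lincRNA with the smallest p for rhythm in control, is shown as the contrast with none of the motifs searched.
1700001L05Rik, chr15:83367248-83367547, minus strand: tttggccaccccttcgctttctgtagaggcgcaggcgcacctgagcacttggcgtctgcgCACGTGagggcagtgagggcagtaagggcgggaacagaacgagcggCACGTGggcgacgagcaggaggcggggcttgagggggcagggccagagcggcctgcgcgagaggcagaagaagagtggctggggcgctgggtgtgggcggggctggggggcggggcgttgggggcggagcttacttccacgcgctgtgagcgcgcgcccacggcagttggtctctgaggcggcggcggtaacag
D630024D03Rik, chr11:31824498-31824797, minus strand: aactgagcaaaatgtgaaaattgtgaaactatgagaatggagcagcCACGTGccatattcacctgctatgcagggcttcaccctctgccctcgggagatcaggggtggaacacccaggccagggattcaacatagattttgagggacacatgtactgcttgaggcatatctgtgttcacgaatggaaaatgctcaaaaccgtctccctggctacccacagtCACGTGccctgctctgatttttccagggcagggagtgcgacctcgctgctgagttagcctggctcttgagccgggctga
Gm15408, chr5:149006712-149007011, plus strand: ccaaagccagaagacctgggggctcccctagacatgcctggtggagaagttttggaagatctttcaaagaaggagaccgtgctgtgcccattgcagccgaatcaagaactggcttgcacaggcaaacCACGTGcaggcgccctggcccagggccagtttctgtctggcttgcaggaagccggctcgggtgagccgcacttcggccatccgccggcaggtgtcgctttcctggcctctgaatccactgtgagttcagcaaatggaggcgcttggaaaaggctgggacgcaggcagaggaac
5930430L01Rik, chr5:148995165-148995464, minus strand: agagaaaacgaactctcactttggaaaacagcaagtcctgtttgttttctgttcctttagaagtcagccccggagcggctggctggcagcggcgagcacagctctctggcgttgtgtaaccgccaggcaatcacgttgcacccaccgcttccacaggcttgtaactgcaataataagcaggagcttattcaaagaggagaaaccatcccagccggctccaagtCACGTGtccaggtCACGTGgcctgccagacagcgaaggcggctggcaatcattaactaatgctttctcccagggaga
1810008I18Rik, chr7:65802787-65803086, plus strand: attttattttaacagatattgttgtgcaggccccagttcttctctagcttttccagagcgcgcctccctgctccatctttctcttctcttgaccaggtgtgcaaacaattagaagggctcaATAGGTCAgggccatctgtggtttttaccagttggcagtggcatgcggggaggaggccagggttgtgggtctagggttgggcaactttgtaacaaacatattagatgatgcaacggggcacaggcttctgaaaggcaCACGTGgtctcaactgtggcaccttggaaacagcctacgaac
Gm36041, chr10:122386645-122386944, plus strand: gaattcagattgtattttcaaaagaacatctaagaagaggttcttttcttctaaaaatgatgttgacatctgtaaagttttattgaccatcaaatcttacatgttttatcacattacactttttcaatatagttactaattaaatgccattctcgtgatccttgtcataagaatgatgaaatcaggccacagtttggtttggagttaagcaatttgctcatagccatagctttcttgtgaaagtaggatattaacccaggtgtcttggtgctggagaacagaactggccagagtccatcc

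Counted from the start, the E-boxes of 1700001L05Rik begin at positions -190 and -144, those of D630024D03Rik at -204 and -29, that of Gm15408 at -123 and those of 5930430L01Rik at -27 and -14. In the promoter of 1810008I18Rik the E-box begins at position 9 after the start. RefSeq starts were found for 119 of the 212 lincRNAs, with 181 promoters in all. An E-box was present in 18 of these 181 promoters, which is 9.95%, and in 7.15% of the 32851 mouse promoters of the same length. The D-box TTANGTAA was present in 3.87% of lincRNA promoters and 2.32% of all promoters, the RORE in 3.32% and 2.59%, and the cAMP response element TGACGTCA in 3.32% and 1.79%. Both strands were searched, and no overlap between motifs was removed. Among 34 promoters of lincRNAs called rhythmic in both arms, 6 held an E-box. These matches describe letters in a window and do not show binding.

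The lincRNAs were present at low levels. Their median level was 1.10 FPKM (fragments per kilobase of gene, scaled to the library), against 3.25 FPKM for protein coding genes with a mean count of 10 or more. Mean counts had a median of 29.3, with 146 lincRNAs at 20 or more, 65 at 50 or more, 40 at 100 or more and 9 at 1000 or more. The 5 with the most counts took 34.2% of all lincRNA counts. By FPKM the highest were Gm10076 at 132.6, AW112010 at 76.3, Gm26917 at 32.3, Gm48633 at 28.7 and Tmem250-ps at 26.0. Gm10076 is 99.5% identical to the ribosomal protein gene Rpl41, so its reads cannot be assigned with certainty. The members lie on 21 chromosomes. Of the 212, 10 have a copy elsewhere with 97% identity or more over at least 50% of a transcript. Exon bases shared with another gene were found in 60, of which 40 shared them only with a gene on the opposite strand. Whether the authors' counting used strand is not given in the sources used here, so reads of such a pair cannot be told apart.

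Daily rhythm was tested by fitting a 24 h cosine and sine per arm. In control, 67 of 212 lincRNAs (31.6%) were called rhythmic at an adjusted p under 0.05, against 27.2% of all 14555 genes tested. In the phase shift arm 88 (41.5%) were called, against 28.2% of all genes. In control this order turned by voom, with 24.5% of lincRNAs against 25.6% of all genes. Among genes of similar level, with a mean count of 10 to 50, 29.9% of 147 lincRNAs were called in control and 34.0% in the phase shift arm, while the 2720 other genes of that level had 14.6% and 17.9%. At a mean count of 50 or more the lincRNAs had 35.4% and 58.5% of 65, and the 10262 other genes had 33.0% in both arms. A test for any difference between the 6 times, with no assumption on shape, called 46 lincRNAs in control (19.2% of all genes) and 67 in the phase shift arm (21.2% of all genes).

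Both arms called 43 lincRNAs, which is 64.2% of the control calls and 48.9% of the phase shift calls. Over all genes these shares were 52.1% and 50.3%. A further 24 were called in control and not in the phase shift arm, 45 the other way round, and 100 in neither. A call in a single arm is no test of a difference between the arms. That test is given further on. The amplitude, the height of the fitted log2 CPM curve above its mean, had a median of 0.60 among called lincRNAs in control and 0.64 in the phase shift arm. All called genes had medians of 0.33 and 0.36. These medians were not matched for level. The lincRNAs had a median mean count of 29.3, and protein coding genes kept by the same count minimum had 271. The medians therefore do not show that lincRNA rhythms are larger than those of other genes of similar level. Fitted amplitudes reached 1 or more, a 4-fold range or larger between peak and trough, in 13 and 15 called lincRNAs. No such count is given for all called genes.

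**Figure D1:**
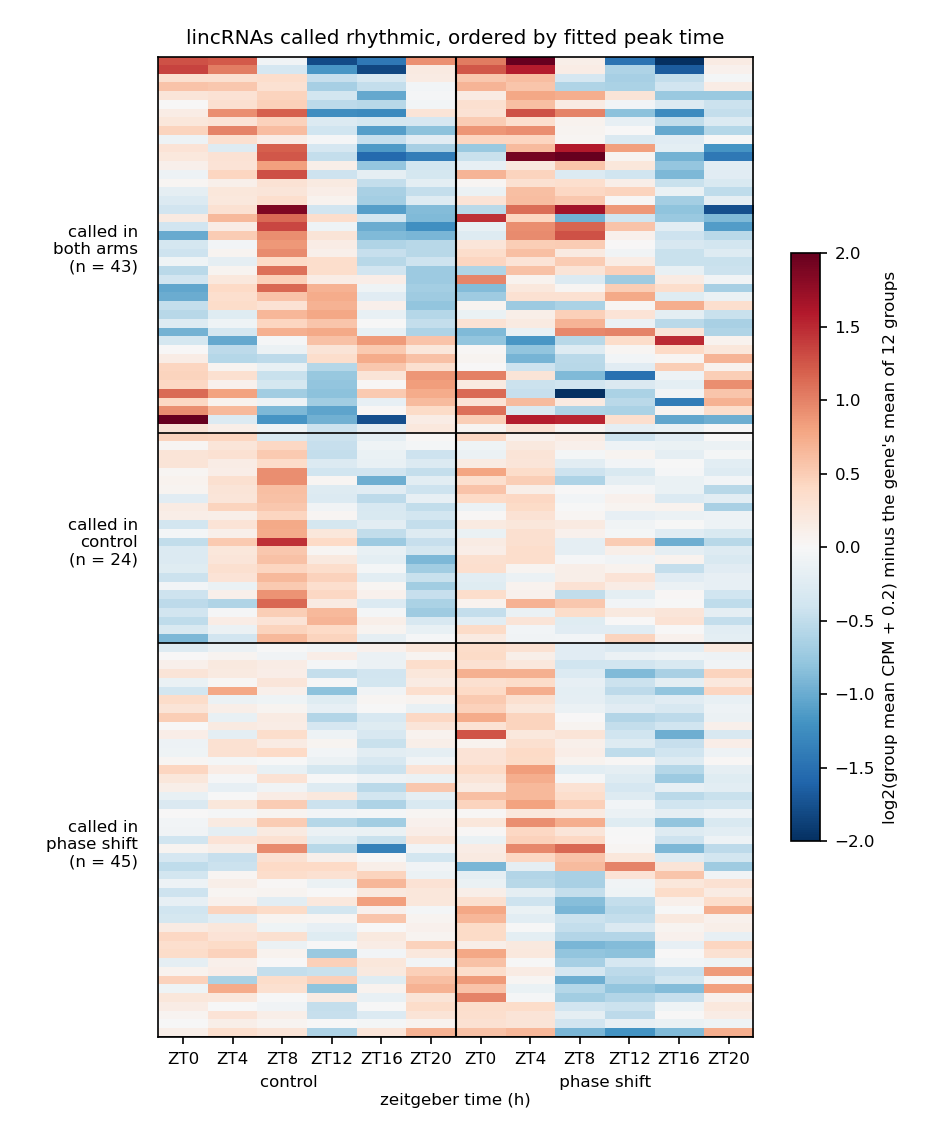
Heat map of the 112 lincRNAs called rhythmic in at least 1 arm, in blocks of 43 called in both arms, 24 in control alone and 45 in phase shift alone; columns are the 12 groups and colour is log2 of the group's mean CPM plus 0.2, minus the gene's mean over the 12 groups, limited at 2. In the full data few rows peak between 12 and 20 h, 3 of 67 in control and 9 of 88 in phase shift.

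Peaks gathered in the light phase. In control 40.3% of the called lincRNAs peaked between 4 and 8 h and 29.9% between 8 and 12 h, while all called genes had 20.2% and 25.9% in these windows. Between 12 and 20 h there were 3 of 67 lincRNA peaks. In the phase shift arm the largest window was 0 to 4 h, with 30.7% of called lincRNAs against 15.7% of all called genes, followed by 4 to 8 h with 28.4% and 20 to 24 h with 22.7%.

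The clustering of control peaks moved with the mitochondrial share of the libraries. Peaks between ZT4 and ZT12 made up 70.1% of the control calls (47 of 67). Without the 8 libraries of high mitochondrial share they made up 44.9% (22 of 49), with the share as a covariate 55.2% (37 of 67), and without control ZT8 replicate 2 alone 53.2% (25 of 47). In the phase shift arm the share was 36.4% in the full data, 32.9% without the 8 libraries and 38.9% with the covariate. The window of 0 to 4 h in that arm held 27 of 88 peaks in the full data and 20 of 76 without the 8 libraries. With the covariate it held 10 of 72, and the largest window was 4 to 8 h with 21 of 72. Phase shift peaks at 12 to 16 h and 16 to 20 h numbered 2 and 7 of 88 in the full data. They numbered 6 and 11 of 76 without the 8 libraries, and 5 and 11 of 72 with the covariate. In control these windows held 1 and 2 of 67, 3 and 2 of 49, and 4 and 2 of 67, in the same order. The part of the mitochondrial share in the lincRNA rhythms was not tested. Without the 8 libraries 49 lincRNAs (23.1%) were called in control and 76 (35.8%) in the phase shift arm, against 21.1% and 32.4% of all genes. With the covariate 67 (31.6%) and 72 (34.0%) were called, against 32.2% and 31.8%.

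**Figure D2:**
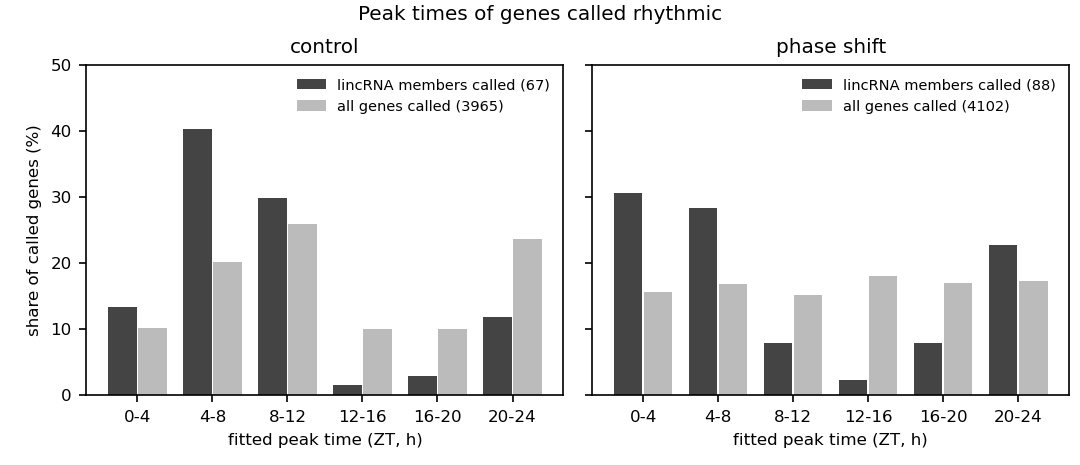
Share of genes called rhythmic whose fitted peak falls in each 4 h window of zeitgeber time, for control and phase shift, lincRNAs beside all called genes. In the full data the lincRNA share is highest at 4 to 8 h in control (40.3%) and at 0 to 4 h in phase shift (30.7%). With the mitochondrial share as a covariate, the phase shift peaks were 10 of 72 at 0 to 4 h and 21 of 72 at 4 to 8 h.

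Under all 3 of these fits, 29 lincRNAs were called in both arms. Peak times of these 29 were compared between arms in the full data alone. Their peaks in the phase shift arm lay within 2 h of control in 22 and within 4 h in 27, with a median difference of 0.63 h (11 earlier, 18 later). For 6 of the 29 the difference was over 2 standard errors. They include every lincRNA described in the next paragraphs through the cluster on chromosome 8, except Gm2814. The high and low times shown for a lincRNA there were picked from its own values. A lack of overlap between such times is therefore no test beside that of the rhythm.

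Gm36041 (chr10:122386892-122435033, plus strand, mm10) had its highest level around the start of the light phase in both arms. In control its levels were 10.2, 9.47, 5.49 and 6.80 CPM at ZT0, and 0.588, 0.405, 0.693 and 1.16 CPM at ZT16. After the phase shift they were 12.3, 8.80, 7.30 and 9.05 CPM at ZT4, and 0.695, 0.825, 1.08 and 0.650 CPM at ZT16. The high and low groups did not overlap in either arm. Fitted peaks were at 1.72 h (SE 0.36) in control and 2.58 h (SE 0.38) in the phase shift arm, with peak-to-trough ratios of 10.2 and 8.22 and adjusted p = 2.56e-10 and 2.09e-10. The nearest tested coding gene is Avpr1a, a vasopressin receptor, 13.5 kb away on the same strand. It peaked at 22.3 h and 22.7 h, with adjusted p = 6.11e-11 and 6.85e-12.

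Gm34654 (chr9:77807036-77809793, minus strand) was close to the detection floor at ZT12 and ZT16. In control it had 4.16, 1.73, 0.725 and 1.56 CPM at ZT0 and 0, 0.284, 0 and 0 CPM at ZT12. Phase shift livers had 2.63, 5.78, 2.88 and 3.48 CPM at ZT4 and 0.116, 0, 0 and 0 CPM at ZT16. Every library at the high time lay above every library at the low time. Peaks were fitted at 0.90 h (SE 0.62) and 2.54 h (SE 0.30), with adjusted p = 5.20e-05 and 6.17e-07. The gene lies tail to tail with Gclc, which encodes the catalytic subunit of the enzyme that starts glutathione synthesis, at a distance of 12.6 kb. Gclc peaked at 22.6 h and 0.68 h.

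1700001L05Rik (chr15:83353847-83367282, minus strand), with 2 E-boxes in the promoter printed above, peaked near the end of the light phase. In control it had 2.67, 3.62, 3.78 and 3.17 CPM at ZT0 and 12.6, 9.47, 11.7 and 11.1 CPM at ZT12. Phase shift values were 2.71, 2.93, 5.07 and 3.08 CPM at ZT0 and 11.8, 11.6, 14.8 and 14.7 CPM at ZT12. The groups did not overlap, and the fitted peaks of 10.7 h (SE 0.39) and 10.8 h (SE 0.38) differed by 0.16 h (SE 0.54). Adjusted p was 5.87e-10 and 4.08e-11. Its neighbour Arfgap3, 3.6 kb away on the same strand and a regulator of Golgi traffic, was not called in either arm (adjusted p = 0.809 and 0.946).

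Of the other lincRNAs with an E-box in the promoter printed above, 1810008I18Rik peaked at 23.1 h and 2.16 h, and the rest peaked in the light phase. The control call of 1810008I18Rik was kept in 45 of 48 fits with a library left out. Its adjusted p reached 0.0813 without control ZT0 replicate 1, which had 132 CPM (others 54.9 to 59.8). D630024D03Rik had 0.773, 0.509, 0.311 and 0.403 CPM at control ZT0 and 1.42, 3.97, 3.09 and 1.51 CPM at ZT8, with peaks at 7.79 h (SE 0.56) and 6.61 h (SE 0.70). Its nearest coding gene Cpeb4, a regulator of mRNA polyadenylation 47.7 kb away, peaked at another time of day, at 23.3 h and 1.54 h. Gm15408 peaked at 8.64 h and 8.58 h, with adjusted p = 2.17e-05 and 0.0180. 5930430L01Rik, which starts 11.7 kb away on the other strand, peaked at 5.94 h and 6.57 h, with adjusted p = 0.000929 and 0.0108.

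Other lincRNAs among the smallest p in control also peaked in the light phase. Gm31333 peaked at 4.57 h and 3.65 h, Gm35696 at 7.36 h and 7.51 h, Gm19619 at 9.46 h and 9.83 h, and 1810058I24Rik at 10.4 h and 8.51 h. Gm11752, which overlaps Tbc1d16 on the opposite strand, peaked at 9.26 h and 11.0 h, and Tbc1d16 at 9.40 h and 10.5 h. These 5 were called in both arms. With a library left out, the phase shift call of 1810058I24Rik was kept in 35 of 48 fits (adjusted p up to 0.118). That of Gm11752 was kept in 47 of 48 (up to 0.0521). C730027H18Rik, among the smallest p in the phase shift arm (adjusted p = 1.00e-05), peaked at 1.91 h and 1.39 h. Its control call (0.0288) was kept in 44 of 48 fits with a library left out.

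Between 12 and 20 h the called lincRNAs had few peaks in the full data. Gm15889 (chr8:94377872-94380317, plus strand) had 0.748, 0.601, 0.350 and 0.683 CPM at control ZT4 and 3.17, 2.95, 2.54 and 2.15 CPM at ZT16. After the phase shift it had 0.457, 0.566, 0.674 and 0.380 CPM at ZT4 and 4.35, 7.72, 2.10 and 3.13 CPM at ZT16. All ZT16 values lay above all ZT4 values, and the peaks at 15.5 h (SE 0.59) and 15.4 h (SE 0.52) differed by -0.12 h (SE 0.79). Its adjusted p was 0.000209 and 1.55e-07. It lies 6.1 kb from Herpud1, a gene of the endoplasmic reticulum stress response, which was called in the phase shift arm alone (adjusted p = 0.109 and 0.000686, peaks at 13.4 h and 12.4 h). C730036E19Rik, known as lncLSTR, a liver lincRNA described in mice as a regulator of triglyceride clearance and named here after its values were seen, peaked at 16.3 h (SE 0.88) and 17.1 h (SE 0.77) with adjusted p = 0.00205 and 0.00152. Its levels were 12.0, 13.5, 14.2 and 15.4 CPM at control ZT16 and 7.35, 5.65, 5.25 and 8.07 CPM at control ZT4.

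Gm10804 (chr2:93452819-93469871, plus strand), which overlaps Cd82 on the opposite strand, had the largest amplitude in the phase shift arm. It had 0, 0, 0.479 and 0.229 CPM at phase shift ZT20 and 4.85, 10.8, 3.26 and 3.62 CPM at ZT8. In control it had 0.118, 0.229, 0.400 and 0 CPM at ZT20 and 1.84, 4.88, 1.19 and 0.927 CPM at ZT8, where the highest value is that of replicate 2, a library of high mitochondrial share. The ZT8 and ZT20 libraries did not overlap in either arm. Amplitudes were 1.41 (SE 0.26) and 2.33 (SE 0.31), with adjusted p = 0.000569 and 1.90e-07. Peaks were fitted at 5.89 h and 6.87 h. Cd82, which encodes a membrane protein of the tetraspanin family, had amplitudes of 0.15 and 0.25.

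On chromosome 8, 4 lincRNAs on the minus strand follow each other between 10858750 and 10900558. B930025P03Rik had 1.06, 0.916, 2.23 and 0.790 CPM at control ZT20 and 10.6, 19.1, 5.23 and 2.61 CPM at ZT8. Phase shift libraries had 0.288, 0.0567, 0.839 and 1.14 CPM at ZT20 and 7.39, 9.85, 5.80 and 9.90 CPM at ZT8. The ZT8 libraries lay above the ZT20 libraries in both arms. The 4 genes Gm32540, B930025P03Rik, Gm45044 and Gm2814 were all called in both arms, with peaks at 3.74, 6.70, 5.86 and 3.67 h in control and 4.53, 7.65, 8.89 and 5.95 h in the phase shift arm. Their nearest tested coding gene is Irs2, which encodes an adaptor of insulin signalling, 84.1 to 118.5 kb away on the same strand. Irs2 was not called in either arm (adjusted p = 0.0559 and 0.415), with fitted peaks at 23.7 h and 1.80 h.

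**Figure D3:**
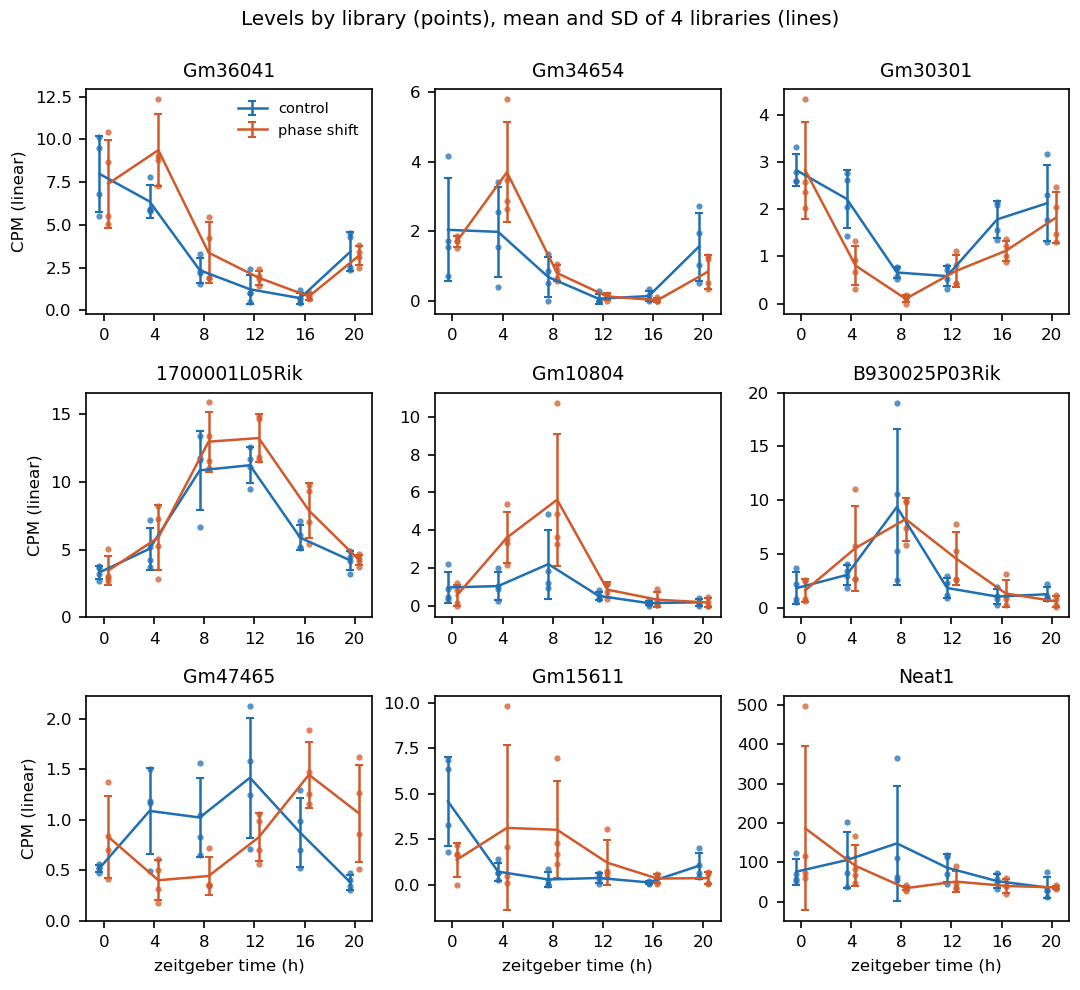
Level in CPM of 9 lincRNAs in each library by labelled zeitgeber time, control and phase shift, with the mean and SD of the 4 libraries of a group. Gm36041 and Gm34654 are high around ZT0 to ZT4, 1700001L05Rik is high at ZT8 and ZT12 in both arms, and Neat1 has its highest single library, 496 CPM, at phase shift ZT0.

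Neighbouring coding genes were set beside the lincRNAs by distance. A tested coding gene lay within 5 kb of 96 lincRNAs or overlapped them, 41 of them head to head, 28 in tandem on the same strand, 19 overlapping on opposite strands, 4 overlapping on the same strand and 4 tail to tail. In control 29 of these 96 lincRNAs were called, beside 31.6% of all 212 lincRNAs and 27.2% of all genes. In 15 pairs both genes were called, of which 13 had peaks within 2 h. Control peaks gathered between 4 and 12 h among lincRNAs and all called genes, and no count was made for pairs of genes that are not neighbours. After the shift 34 of the 96 were called, beside 41.5% of all 212 lincRNAs and 28.2% of all genes. Both genes were called in 16 pairs, of which 6 had peaks within 2 h and 5 were over 6 h apart. Gm2061 overlaps Slc30a10, a manganese exporter, and peaked at 23.1 h and 21.9 h, while Slc30a10 peaked at 23.0 h and 22.2 h. Of the exon bases of Gm2061, 19.3% are shared with Slc30a10 on the opposite strand. Gm37336 lies 2.7 kb from Coq8a, a gene of coenzyme Q synthesis, and peaked at 21.8 h and 22.9 h, while Coq8a peaked at 23.4 h and 23.9 h. Shared reads between such neighbours were not tested.

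Among the 43 lincRNAs called in both arms, the peak in the phase shift arm was earlier in 22 and later in 21, with a median difference of -0.04 h. Peaks lay within 2 h of each other in 26 of 43 (60.5%), and over all genes called in both arms in 69.3%. In 5 of 43 they were over 4 h apart. The median standard error of a peak difference was 1.19 h, and 13 of 43 differences were over 2 standard errors.

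The test of a difference in rhythm between the arms called 3 lincRNAs, 1.42% of 212, against 0.192% of all genes. At an unadjusted p under 0.05 there were 45, which is 21.2% against 19.3% of all genes. The 3 were Gm47465, Gm15611 and Gm29650. The next gene by p, BC049987, was not called (adjusted p = 0.139). By DESeq2 the order of the shares turned, with 1 lincRNA called (0.472%) against 2.25% of the 7499 genes given an adjusted p. That lincRNA was BC049987 (DESeq2 adjusted p = 0.0375), and DESeq2 gave none of the 3 an adjusted p.

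Gm47465 (chr9:31947018-32005460, minus strand) had its peak in the light phase in control and at night in the phase shift arm. It had 1.18, 1.50, 1.17 and 0.497 CPM at control ZT4 and 0.171, 0.503, 0.613 and 0.316 CPM at phase shift ZT4. At ZT20 it had 0.471, 0.401, 0.343 and 0.304 CPM in control and 1.27, 0.511, 1.62 and 0.857 CPM in the phase shift arm. The arms overlapped at ZT4 by a single control library and did not overlap at ZT20, where the adjusted p of the contrast was 0.237. Peaks were at 9.54 h (SE 0.79) and 17.4 h (SE 0.69), a difference of 7.86 h (SE 1.05), with adjusted p = 0.00482 for differential rhythm. It was the single lincRNA called for a different time course in the fit of 12 group means (adjusted p = 0.0271), against 0.137% of all genes. With each library left out in turn the differential rhythm was called in all 48 fits, at an adjusted p of 0.000682 to 0.0175, and it was called without the 8 libraries of high mitochondrial share (0.0122). The time course call was not made by voom, was lost without these 8 libraries (0.0570), and was kept in 45 of 48 fits with a library left out, lost without control ZT4 replicate 2 or phase shift ZT8 replicates 1 or 3. Of the exon bases of Gm47465, 16.8% are shared with Tpi-rs4 on the opposite strand, and whether counting used strand is not given.

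The other 2 were called in fewer than all fits with a library left out. Gm15611 (chr5:8998402-8999669, minus strand) had 1.78, 6.87, 6.37 and 3.28 CPM at control ZT0 and 0, 1.62, 2.18 and 1.69 CPM at phase shift ZT0. At phase shift ZT4 it had 2.06, 0.503, 0.123 and 9.81 CPM, with replicate 4 far above the others. Its peaks were at 23.9 h (SE 0.76) and 6.54 h (SE 1.23), with adjusted p = 0.0488, and it kept the call in 15 of 48 fits with a library left out, at 0.0270 to 0.123. Crot, a peroxisomal carnitine acyltransferase gene 1.1 kb away on the same strand, peaked at 0.91 h and 4.45 h. Gm29650 (chrY:1048393-1049134, plus strand) had 3.62, 1.26, 1.42 and 0.639 CPM at phase shift ZT0 and 0.773, 0.560, 0.414 and 0.461 CPM at control ZT0, with the highest value in the library of highest mitochondrial share. Its adjusted p of 0.0469 became 0.345 without the 8 libraries, and it kept the call in 23 of 48 fits.

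Averaged over the 6 times, no lincRNA differed between the arms (0 of 212 by edgeR, against 0.0% of all genes). At an unadjusted p under 0.05 there were 19, with 7 higher and 12 lower, which is 8.96% against 6.44% of all genes, and DESeq2 called 1. The 5 smallest p belonged to Gm30301, D230017M19Rik, D130017N08Rik, 9430037G07Rik and A430046D13Rik, with log2 differences of -0.77 (SE 0.16), -0.37 (SE 0.12), -0.42 (SE 0.14), -0.49 (SE 0.17) and -0.31 (SE 0.11) and adjusted p of 0.106 to 0.518.

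At single times 1 lincRNA was called, at ZT8, where 0.131% of all genes were called. This was Gm30301 (chr5:52982037-52995753, plus strand), a rhythmic lincRNA with peaks at 22.7 h (SE 0.50) and 21.0 h (SE 0.53). It had 0.593, 0.520, 0.772 and 0.753 CPM at control ZT8 and 0.177, 0, 0.118 and 0.113 CPM at phase shift ZT8. Every phase shift value lay below every control value, and all 4 were near or below the level that a count of 0 allows. The log2 difference was -2.65 (SE 0.51) with adjusted p = 0.0142. The call was lost without phase shift ZT8 replicates 2, 3 or 4, with adjusted p of 0.0097 to 0.136 over the 48 fits with a library left out, and held without the high mitochondrial libraries (0.0247). At ZT4 its log2 difference was -1.39 (SE 0.37) with adjusted p = 0.0981. Slc34a2, a sodium phosphate cotransporter gene 42.3 kb away on the same strand, peaked at 23.2 h and 21.5 h and had a log2 difference of -1.86 at ZT8 with adjusted p = 0.431.

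At ZT0, ZT4, ZT12, ZT16 and ZT20 no lincRNA was called, and of all genes 0.0%, 0.117%, 0.0%, 0.0% and 0.282% were. At an unadjusted p under 0.05 the counts at these times were 27, 22, 15, 7 and 8 of 212. These are 12.7%, 10.4%, 7.08%, 3.3% and 3.77%, against 7.3%, 9.19%, 4.97%, 4.4% and 7.3% of all genes. All 27 at ZT0 were higher in the phase shift arm. At ZT8 the count was 57, which is 26.9% against 11.7% of all genes, with 55 of the 57 lower in the phase shift arm. DESeq2 called 1 lincRNA at ZT4 (0.472% of 212, against 0.899% of all genes) and 5 at ZT8 (2.36% against 0.472%). At ZT16 the smallest p belonged to 1810008I18Rik, with 33.7, 41.2, 66.5 and 60.4 CPM in control and 24.2, 26.6, 15.3 and 19.7 CPM in the phase shift arm. The groups did not overlap, and the log2 difference of -1.21 (SE 0.29) had an adjusted p of 0.326. At ZT0 and ZT12 the smallest p were those of Gm29650 (log2 difference 1.81, adjusted p = 0.580) and 2310040G24Rik (-1.11, adjusted p = 0.808).

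The lincRNAs as a group leaned in opposite directions at ZT0 and ZT8. At ZT0 the median log2 difference was 0.30 with 160 of 212 higher in the phase shift arm, and at ZT8 it was -0.35 with 168 lower. The medians over all 14555 genes were 0.00 and -0.01. Without the 8 libraries of high mitochondrial share the medians were 0.11 at ZT0 and -0.11 at ZT8, and with the share as a covariate 0.06 and -0.22. Leaving out phase shift ZT0 replicate 1 alone gave 0.12 at ZT0, and leaving out control ZT8 replicate 2 alone gave -0.10 at ZT8. These are the libraries with mitochondrial shares of 19.9% and 12.8%. The medians at ZT4 and ZT12, 0.12 and -0.10, took the other sign without the 8 libraries, at -0.03 and 0.09, and with the covariate, at -0.03 and 0.13. Without control ZT12 replicate 2 alone the ZT12 median was 0.10.

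**Figure D4:**
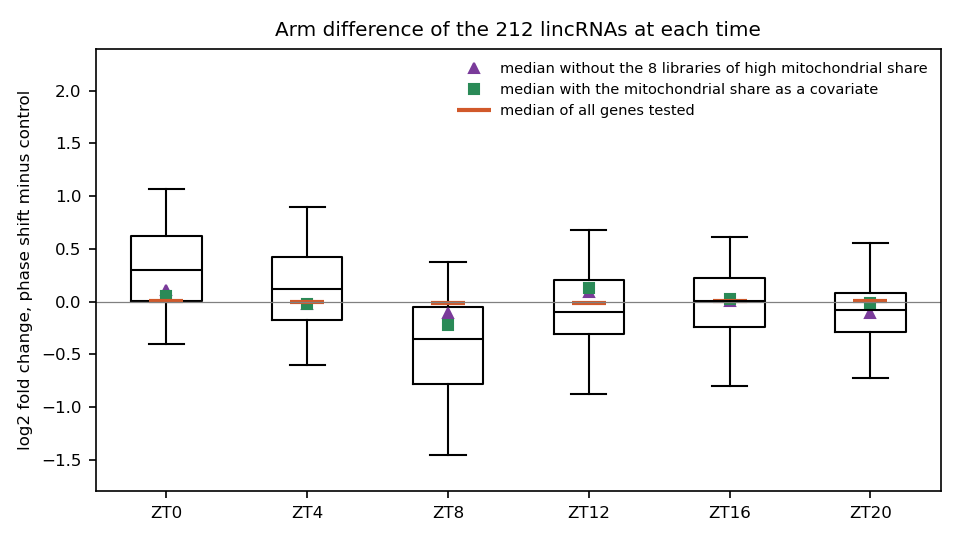
Log2 difference of phase shift minus control at each zeitgeber time for the 212 lincRNAs, with boxes for the quartiles and whiskers from the 5th to the 95th percentile, beside the median of all genes tested and the lincRNA median under both settings for the mitochondrial share. The boxes lie above 0 at ZT0 and below 0 at ZT8, and the median at ZT8 moves from -0.35 to -0.11 without the 8 libraries.

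Within groups, 117 lincRNAs (55.2%) were called for a slope on the mitochondrial share, as were 51.8% of all genes. Without the 8 libraries of high share 3 lincRNAs (1.42%) were called, against 8.19% of all genes. The share comes from the same counts as the genes. Of the lincRNAs 103 were higher and 14 lower where the share was high, while all genes split into 25.4% higher and 26.5% lower. The median slope was 0.49 log2 units per doubling of the share, against -0.01 over all genes. In the 8 libraries the lincRNAs took 0.117% to 0.254% of the counts with a median of 0.180%, and in the other 40 they took 0.116% to 0.175% with a median of 0.141%. All 10 Kupffer markers and all 9 sinusoidal endothelial markers had slopes in the lower direction, with medians of -2.51 and -2.18.

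**Figure D5:**
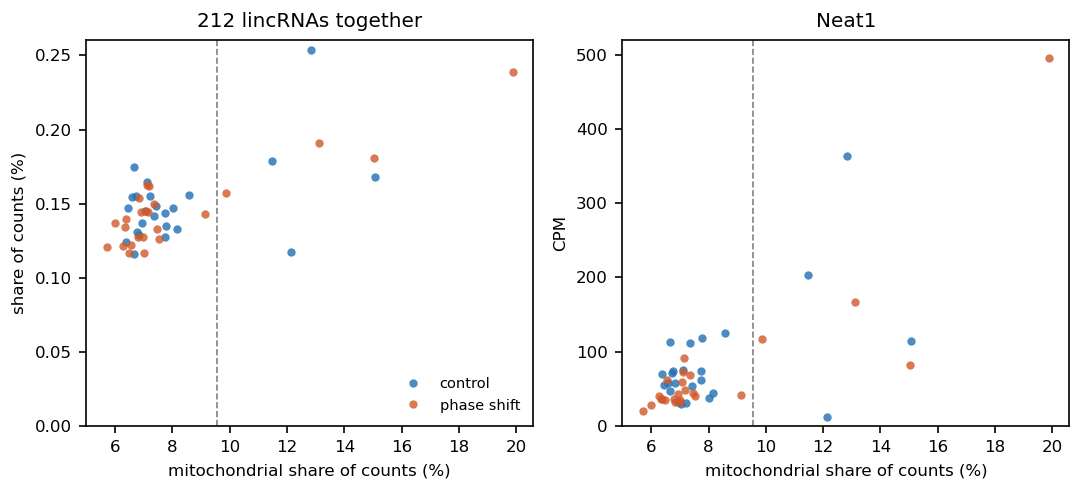
Mitochondrial share of the counts of each library in percent against the summed share of the 212 lincRNAs in percent and against the level of Neat1 in CPM, with the dashed line at 9.54%. The library with the highest mitochondrial share, 19.9%, has the highest Neat1 level, 496 CPM.

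Neat1 (chr19:5824708-5845478, minus strand) is the RNA scaffold of nuclear paraspeckles. It had 112, 364, 61.9 and 55.0 CPM at control ZT8 and 36.4, 32.6, 41.7 and 28.5 CPM at phase shift ZT8. At phase shift ZT0 it had 496, 117, 72.6 and 59.5 CPM. The highest library of each arm was one of high mitochondrial share, and the slope on that share was 1.58 (SE 0.30). Neat1 was called rhythmic in both arms (adjusted p = 0.0229 and 0.00638, peaks at 7.10 h and 1.61 h), and neither call held without the 8 libraries (0.342 and 0.786) or with the covariate (0.0988 and 0.649). Of 15 tested genes of the nuclear RNA exosome and its adaptors, which degrade noncoding transcripts, 4 were called in control (Exosc5, Exosc10, Exosc7 and Exosc4) and 2 in the phase shift arm (Pabpn1 and Exosc8), beside 27.2% and 28.2% of all genes.

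Of 51 listed lncRNAs with a described function, 13 are among the 212. In control 5 of the 13 were called rhythmic, and in the phase shift arm 4, beside 27.2% and 28.2% of all genes. Besides Neat1 these include Malat1, the abundant RNA of nuclear speckles, in control alone (adjusted p = 0.0126 and 0.218), and the snoRNA host gene Snhg12 in both (0.0346 and 0.0234). Snhg20, another snoRNA host gene, was called in control alone (0.0249 and 0.590). Without the 8 libraries of high mitochondrial share the control calls of Snhg12 and Snhg20 were lost (0.481 and 0.267), and Snhg20 was called in the phase shift arm (0.0309). Both control calls were also lost without control ZT8 replicate 2 alone (0.252 and 0.234). Snhg12 lost its phase shift call without phase shift ZT4 replicate 2 (0.0627) or ZT16 replicate 3. Mir17hg, the host of the miR-17 cluster, was called in the phase shift arm alone (0.947 and 0.00409), a call that was also lost without the 8 libraries (0.132). The RNA Norad, which binds PUMILIO proteins and is listed in the deposited table as 2900097C17Rik, peaked at 24.0 h and 2.96 h, with adjusted p = 8.10e-05 and 0.00621. An identical copy of its whole transcript, Gm7292, is annotated, so its reads cannot be assigned with certainty. Meg3, Snhg6, Snhg18, Epb41l4aos, Pvt1, Jpx and Ftx were not called in either arm. The test of a difference in rhythm between arms called 0 of the 13, and 3 of 212 overall. The slope on the mitochondrial share was called in 10 of the 13, with 9 higher, beside 51.8% of all genes called.

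In the RefSeq annotation 7 of the 212 lincRNAs hold 13 miRNA hairpins within their bounds and on their own strand. In control 3 of the hosts were called rhythmic, Snhg20, E130102H24Rik (adjusted p = 0.0165) and 6720427I07Rik (0.0317), and after the phase shift Mir17hg was called. Of all genes 27.2% and 28.2% were called in these arms. E130102H24Rik, the host of miR-101a, had 2.61, 3.64, 1.90 and 1.74 CPM at control ZT8 and 0.589, 1.83, 0.972 and 1.03 CPM at control ZT20. These groups overlapped by a library, and the call was lost without the 8 libraries of high mitochondrial share (0.136). A mature miRNA of E130102H24Rik and of 6720427I07Rik and 2 of Mir17hg are given as examples from RefSeq on build GRCm38.p6 with the seed, bases 2 to 8, in capitals, and their own levels were not measured.
mmu-miR-101a-3p, from E130102H24Rik: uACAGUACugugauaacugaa
mmu-let-7d-5p, from 6720427I07Rik: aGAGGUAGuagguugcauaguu
mmu-miR-17-5p, from Mir17hg: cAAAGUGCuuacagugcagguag
mmu-miR-20a-5p, from Mir17hg: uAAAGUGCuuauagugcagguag

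miR-17-5p and miR-20a-5p share their seed, and the seeds of miR-101a-3p and let-7d-5p differ from it and from each other.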

How the data were processed

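Liver RNA-seq of 48 libraries was used (2 arms, 6 times, 4 libraries per group). The authors deposited raw counts per gene, as whole numbers, and FPKM values for the same genes and libraries, with reads mapped to mm10 per the labels; aligner, counting program and strand setting: not given in the sources used here. Each deposited FPKM equalled the count scaled by gene length and by a library factor. Arms were taken from sample titles, since the treatment field reads the same for all samples. The labels name no animal for a library, so p-values measure the spread between these libraries.

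Counts were fitted over all genes with edgeR 4.0.16 (R 4.3.3; filterByExpr on the 12 groups, 14555 genes kept; TMM; robust quasi-likelihood F tests; Benjamini-Hochberg over all genes tested, threshold 0.05). Rhythm used a 24 h cosine and sine per arm, and arm differences used 12 group means. All adjusted p-values are from these fits unless another tool is named. The period was fixed because 1 cycle was sampled. Peak times and amplitudes are least squares fits to log2 CPM (prior count 2), with delta-method standard errors. This scale understates the range of low genes. Alternatives were DESeq2 1.42.0, limma 3.58.1 with voom, limma on log2(FPKM + 0.1), other scaling and filters, each library left out, and the mitochondrial share (high above the median plus 3 median absolute deviations). The procedure was tested on simulated data. Replicate numbers did not pair libraries: same-numbered libraries of different groups had a median correlation of deviations of 0.0059 (-0.586 to 0.733 over 264 pairs).

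The members, lists and tests were chosen with earlier results of these data known. Named genes are members with the smallest p per test (12 for rhythm in control, 5 more in the phase shift arm, 4 for differential rhythm, 5 for the average difference, those called or with the smallest p at each time), listed lncRNAs, the 5 highest by FPKM, and neighbours; the lincRNAs with E-box promoters, the chromosome 8 cluster, miRNA hosts and examples of neighbour pairs were chosen after their values were seen. Copies were sought with blastn 2.17.0, and sequences are from RefSeq. Serum data were not analysed here. The list of paraspeckle protein genes is not reported here.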

Additional observations from a re-analysis of the deposited data

Results flagged for a closer look

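In 10 of 90 groups of 4 libraries tested, a single library lay far from the other 3; chance flags about 1 in 20 groups. In 4 of the 10 that library was one of high mitochondrial share. Neat1 had 496 CPM in phase shift ZT0 replicate 1 (others 59.5 to 117), and 2900097C17Rik had 67.9 CPM in the same library (96.1 to 97.9). Gm15408 had 8.91 CPM in control ZT8 replicate 2 (3.21 to 3.32), and Gm34654 had 0.284 CPM in control ZT12 replicate 2 (others at 0). Gm34654 also had 0.0 CPM in phase shift ZT12 replicate 4 (0.175 to 0.186), values near the level a count of 0 allows. 1700001L05Rik had 5.07 CPM in phase shift ZT0 replicate 3 (2.71 to 3.08), Malat1 had 273 CPM in control ZT8 replicate 1 (160 to 178), and 1810008I18Rik had 132 CPM in control ZT0 replicate 1 (54.9 to 59.8). D630024D03Rik had 1.44 CPM in phase shift ZT20 replicate 3 (0.514 to 0.575), and Meg3 had 0.414 CPM in phase shift ZT8 replicate 1 (1.78 to 2.04).

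The rhythm differed between arms, by the test of the difference itself, for Gm47465 (adjusted p = 0.00482, and 0.0271 for its time course), Gm29650 (0.0469) and Gm15611 (0.0488).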

How the results depend on the processing

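The alternatives that left out the high mitochondrial libraries or took the share as a covariate for peak times and for the signs at single times were added after seeing the data. The arm differences followed for single named lincRNAs, averaged or at a single time, kept their direction under the alternatives run. The tests of rhythm and of its difference have no direction that could change. The median arm differences at ZT4 and ZT12 changed sign without the high mitochondrial libraries (-0.03 and 0.09) and with the covariate (-0.03 and 0.13). At ZT12 the sign also changed without control ZT12 replicate 2 (0.10). Counts of rhythmic lincRNAs in control and phase shift were 75 and 90 by DESeq2 (35.4% and 42.5%, against 30.9% and 30.6% of all genes), 52 and 81 by voom (24.5% and 38.2%, against 25.6% and 27.1%), 67 and 87 under the RLE scaling (31.6% and 41.0%, against 27.4% and 28.1%), 53 and 76 without the filter (25.0% and 35.8%, against 12.2% and 13.0%) and 58 and 82 on log2 FPKM (27.4% and 38.7%, against 26.7% and 27.7%).

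With a replicate block the counts were 59 and 86, with 1 call of differential rhythm; the replicate numbers did not pair the libraries, and 15 of 48 libraries correlated best with their own number. Restricted to members with a mean count of 50 or more, where fewer genes are counted, the calls were 23 and 38 for rhythm, 17 and 31 for any time difference, 39 for the slope on the mitochondrial share, and 0 for differential rhythm, time course and ZT8. At a mean of 20 or more, differential rhythm had 1 and time course 0. DESeq2 gave 1 for differential rhythm, 1 for the average, 3 for the time course, 1 at ZT4 and 5 at ZT8. Its differential rhythm call (0.472%, against 2.25% of the genes given an adjusted p) was BC049987, and none of the 3 lincRNAs called by edgeR. Voom gave 0 for the time course and 0 at ZT8, and the libraries of ZT8 alone gave 0. Without the high mitochondrial libraries differential rhythm had 1, the time course 0 and the slope 3 (1.42% against 8.19% of all genes), and control peaks between ZT4 and ZT12 were 44.9%. With the covariate these peaks were 55.2%, the average had 1, the time course 2 and ZT4 1. The cause of these changes was not tested.

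With each library left out in turn, calls ranged from 47 to 75 for rhythm in control and 72 to 93 in phase shift, 37 to 57 and 54 to 77 for any time difference, 104 to 123 for the slope, 1 to 3 for differential rhythm, 0 to 1 for the average and the time course, 0 to 2 at ZT8 and 0 to 0 at the other times. The average had 1 without control ZT12 replicate 1, phase shift ZT0 replicate 1 or phase shift ZT4 replicate 2. The time course had 0 without control ZT4 replicate 2 or phase shift ZT8 replicates 1 or 3. At ZT8 there were 0 without phase shift replicates 2, 3 or 4 and 2 without control replicates 3 or 4. Median amplitudes ranged from 0.32 to 0.36 in control and 0.32 to 0.37 in phase shift, and the control peak share from 53.2% to 78.1%. Of 3193 alternative values for 57 results on single named lincRNAs, 3075 kept their side of the threshold, 101 lost it and 17 gained it.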
